A study of Mus musculus with 14 samples.

Results

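The B lineage identity transcription factors described here are 10 DNA-binding proteins or cofactors that install or hold the B cell expression programme, taken as the genes annotated Pax5, Ebf1, Spib, Spi1, Ets1, Ikzf1, Ikzf3, Bcl11a, Pou2af1 and Pou2f2. They were chosen by gene symbol, and they are 10 of 18193 genes with a probe set of their own on the array. Together they have 29 of the 45037 probe sets that are not controls, and each was read first from its brightest probe set. The expression array study from which they come compared sorted splenic B cell subsets of male C57Bl/Ka mice across an immune response to NP-CGG, a hapten on a carrier protein given with alum. RNA was amplified and hybridised to Affymetrix arrays, 14 in all. Plasma cells (4 arrays) came 7 days after immunisation from mice aged 5 to 9 weeks and were sorted as syndecan-1+ NP-binding cells with low B220. Memory B cells (4 arrays) came 10 to 12 weeks after immunisation from mice aged 14 to 18 weeks and were sorted as NP-binding CD38-high cells without IgM, IgD or PNA staining. Germinal center B cells (3 arrays) came 14 days after immunisation from mice aged 6 to 10 weeks and were sorted as NP-binding PNA+ CD38-low cells. Naive B cells (3 arrays) came from unimmunised mice aged 4 to 8 weeks and were sorted as B220+ CD23+ IgD+ cells. The immunogen dose was 100 µg, except that no dose is given for plasma array 1. All sorts took cells with the lambda light chain (low in the germinal center gate) and left out cells staining for CD11b, Ter119, Gr-1, CD3, CD4, CD5 or CD8. Age and time after immunisation differ between the subsets and cannot be told apart from subset.

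In B cell development Ebf1 and Pax5 specify and commit the lineage, and Pax5 is known to be turned down by Blimp-1, the product of Prdm1, when B cells become plasma cells. PU.1 (Spi1), Spi-B (Spib) and Ets1 belong to the Ets family, Ikaros (Ikzf1) and Aiolos (Ikzf3) are related zinc finger proteins, and Bcl11a is a zinc finger repressor needed for early B cells. Oct2 (Pou2f2) binds the octamer motif of immunoglobulin promoters together with its coactivator OBF-1 (Pou2af1), and OBF-1 is needed for germinal centers.

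Promoter windows from RefSeq (GRCm38.p6, 250 bases before to 50 bases after an annotated start) were found for 7 of the 10 members, as 9 windows, and 6 short motifs were searched in them on both strands. Shown are windows of 3 members that were far lower in plasma cells and of Pou2af1, which was not. Capitals mark motif matches, and 2 of these windows hold one.
Spib, chr7:44532022-44532321, minus strand: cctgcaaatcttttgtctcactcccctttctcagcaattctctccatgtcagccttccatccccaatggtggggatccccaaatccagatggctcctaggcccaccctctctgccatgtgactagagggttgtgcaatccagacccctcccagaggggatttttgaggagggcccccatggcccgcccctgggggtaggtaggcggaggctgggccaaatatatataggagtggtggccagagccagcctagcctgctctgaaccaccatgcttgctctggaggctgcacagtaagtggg
Ebf1, 1 of its windows, chr11:44619978-44620277, plus strand: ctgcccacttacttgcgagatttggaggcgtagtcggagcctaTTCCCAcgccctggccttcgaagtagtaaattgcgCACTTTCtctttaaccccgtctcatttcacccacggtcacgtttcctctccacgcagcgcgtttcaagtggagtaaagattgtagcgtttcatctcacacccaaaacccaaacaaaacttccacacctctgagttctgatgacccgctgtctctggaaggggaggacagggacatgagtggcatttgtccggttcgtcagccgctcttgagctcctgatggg
Bcl11a, chr11:24080445-24080744, plus strand: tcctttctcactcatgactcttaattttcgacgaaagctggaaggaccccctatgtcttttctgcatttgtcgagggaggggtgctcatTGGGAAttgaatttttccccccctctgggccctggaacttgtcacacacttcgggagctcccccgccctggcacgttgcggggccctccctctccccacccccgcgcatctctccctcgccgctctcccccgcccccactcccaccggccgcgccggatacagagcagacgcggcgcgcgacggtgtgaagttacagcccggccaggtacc
Pou2af1, chr9:51213440-51213739, plus strand: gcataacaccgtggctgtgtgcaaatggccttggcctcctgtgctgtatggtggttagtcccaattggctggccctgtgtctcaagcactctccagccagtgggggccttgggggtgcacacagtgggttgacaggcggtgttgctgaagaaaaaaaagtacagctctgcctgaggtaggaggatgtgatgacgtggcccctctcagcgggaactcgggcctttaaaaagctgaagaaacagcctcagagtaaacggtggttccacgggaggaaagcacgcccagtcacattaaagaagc

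The motifs were the octamer ATTTGCAT, the Ebf1 palindrome, a PU.1 form GAGGAAGT, an Ets form CCGGAAGT, an Ikaros core TGGGAA and a Blimp-1 core GAAAGTG. None of the 6 contains another, and overlapping matches were allowed. Among all 32851 promoter windows of the reference they occurred in 1.74%, 0.904%, 3.20%, 3.89%, 25.6% and 4.81%, in that order. In the Ebf1 window shown, the capitals are the reverse complement of the Ikaros core at positions -207 to -202 and the reverse complement of the Blimp-1 core at -172 to -166, counted from the start. The Bcl11a window has the Ikaros core at -161 to -156. The Pou2f2 window, not shown, has the reverse complement of the Ets form at -71 to -64. No match lay in the windows of Spib, Pou2af1, Pax5 and Ikzf1 or in the other Ebf1 window. These matches are letters in a window and carry no measurement of binding. Windows of Ikzf3, Spi1 and Ets1 were not used here.

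The plasma and germinal center samples carried the markers of their labels, and no list of memory markers was read. All 6 plasma cell markers measured, Prdm1, Xbp1, Jchain, Sdc1, Tnfrsf17 and Irf4, were higher in plasma than in naive cells. Sdc1 encodes syndecan-1, on which plasma cells were sorted, so it is a marker of that gate. All 5 germinal center markers, Bcl6, Fas, Mki67, S1pr2 and Rgs13, were higher in germinal center than in naive cells. Mki67, a proliferation marker, and S1pr2 were also higher in plasma than in naive cells. Mki67 averaged 5813 in plasma cells, 229 in memory cells, 6850 in germinal center cells and 14.6 in naive cells. It was not called between plasma and germinal center cells. The 6 B cell markers were above background on every memory, germinal center and naive array and 5 or 6 of them on each plasma array. Of these 6, 5 were called lower in plasma than in naive cells and 1, Ighm, higher. An array's background was taken as its brightest bacterial control probe set that was not spiked in, which lay between 11.0 and 16.1 intensity units, and between 52.7% and 66.9% of genes exceeded it. The number of arrays limits the precision. The labels do not say that arrays of a subset came from separate mice, so the p-values measure the spread between these samples. In bulk RNA, fewer cells that express a gene and less of its RNA in each cell cannot be told apart. The ratio of the 3′ to the middle beta-actin control probe set, which rises when transcripts are shortened, was 6.27 ± 0.716 on plasma arrays, 4.63 ± 0.501 on memory arrays, 11.3 ± 5.81 on germinal center arrays and 4.79 ± 0.464 on naive arrays (SD, n = 4, 4, 3 and 3). The summed intensity of 10 T cell markers was 167 to 194 on plasma arrays, 127 to 137 on memory arrays, 136 to 162 on germinal center arrays and 128 to 140 on naive arrays. For 11 myeloid markers it was 142 to 293, 134 to 147, 149 to 166 and 147 to 176 in that order. Of these markers Cd3g, Gata3, Itgam, S100a8, S100a9 and Cd14 were below background on every array, and Cd3e, Cd4, Lat, Csf1r and Adgre1 were above it on all 14. Of 6 erythroid markers Gata1, Alas2 and Hba-a1, and of 5 NK cell markers Nkg7, Klrk1 and Eomes, were below background on every array.

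The members fell into a few patterns over the subsets. Ebf1, Spib, Bcl11a and Ets1 were bright in memory, germinal center and naive cells and dim in plasma cells, where Spib was at background, Ebf1 and Bcl11a were near it and Ets1 was clearly above it. Ikzf1 and Ikzf3 were bright in all subsets and dimmest in plasma cells, and Pou2af1 was bright in all subsets and dimmest in memory cells. Pax5, Spi1 and Pou2f2 gave weak signals everywhere: the brightest Pax5 probe set averaged 1.22 times background in plasma cells, 3.45 times in memory cells, 2.07 times in germinal center cells and 2.21 times in naive cells. For Spi1 these ratios were 2.49, 2.73, 3.62 and 3.61 in the same order, and for Pou2f2 0.885, 1.51, 1.01 and 1.24. Levels of different probe sets are not comparable between genes, so a dim signal says nothing about the amount of protein or RNA relative to another member.

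**Figure D1:**
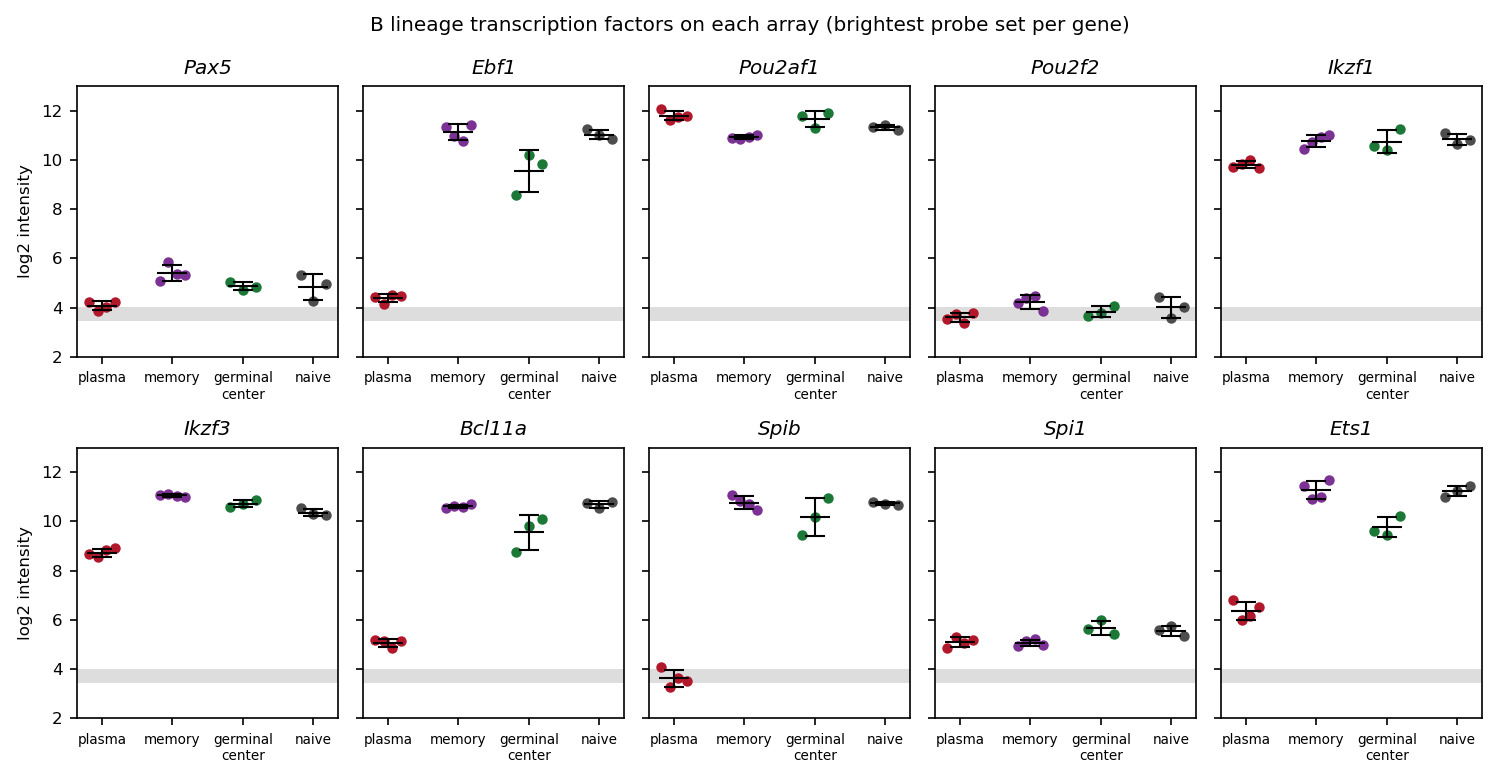
Log2 intensity of the brightest probe set of each of the 10 members on every array (points), by subset, with the mean and SD of the subset (bar and whiskers) and the range of the arrays' backgrounds (grey band). The plasma arrays of Spib lie in and around the band, those of Ebf1 just above it, and those of Pou2af1 level with or above the other subsets.

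Plasma cells were compared with naive B cells first, the contrast in which the B cell programme is known to be shut off. Of the 10 members 8 were lower and 1, Pou2af1, was higher, and Pou2f2 did not pass the test. Over all 18193 genes 16.1% were lower and 14.2% higher. The median log2 change of the 10 members was -1.33, against 0.06 over all genes. Calls are at an adjusted p under 0.05 (limma, Benjamini-Hochberg over all genes), and log2 changes are given with their SE.

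All 3 Ets family members were lower, and Spib was bright on naive arrays and at background in plasma cells. Spi-B, close kin of PU.1, is needed for antigen responses of mature B cells. Spib (chromosome 7, 44525995 to 44532087 in GRCm38.p6, as for all positions here) had intensities of 16.8, 9.54, 12.6 and 11.5 on plasma arrays, against 1790, 1674 and 1625 on naive arrays. The subsets did not overlap, and the plasma signal exceeded background on 2 of 4 arrays. The change was -7.10 ± 0.28 (adjusted p = 2.16e-10). As 2 plasma arrays were not above background, the size of this fall is limited by the background. Ets1 (chromosome 9, 32636241 to 32757820), whose loss in mice leads to excess plasma cells, had 112, 63.6, 70.6 and 92.1 on plasma arrays, against 2051, 2414 and 2736 on naive arrays. Every plasma array was below every naive array, and all 4 were above background. Ets1 was 28.9-fold lower (-4.85 ± 0.25, adjusted p = 2.17e-09). Spi1 (chromosome 2, 91082374 to 91115759), which encodes PU.1, the factor that acts in early lymphoid and myeloid progenitors, had 28.6, 39.4, 33.1 and 36.4 on plasma arrays, against 47.9, 53.5 and 40.3 on naive arrays. The highest plasma array was just under the lowest naive array. The change of -0.46 ± 0.16 passed narrowly (adjusted p = 0.0413), and it missed the threshold under 13 of 27 alternatives, with adjusted p between 0.015 and 0.45. It was -0.21 once the arrays were aligned on bright genes, whose median change in this contrast was -0.25.

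Both members of the pair that specifies the lineage were called lower in plasma cells. The Pax5 probe set was dim in all subsets, so its fold has little room and cannot be set against that of Ebf1. Ebf1 (chromosome 11, 44618100 to 45008096) had 21.7, 17.5, 22.6 and 22.0 on plasma arrays, against 2415, 2065 and 1828 on naive arrays. No array of one subset came near the other, although the plasma signal stayed above background on 4 of 4 arrays. The change was -6.65 ± 0.30 (adjusted p = 7.46e-10). Pax5 (chromosome 4, 44524748 to 44710694), the commitment factor of the lineage, had 18.6, 14.4, 16.1 and 18.5 on plasma arrays, against 39.7, 19.3 and 31.0 on naive arrays. The subsets were separated by less than 1 unit, since naive array 2 was close to the plasma arrays, and 3 of 4 plasma arrays exceeded background. The change was -0.77 ± 0.23 (adjusted p = 0.0173), with a 95% interval of -1.26 to -0.29. It was not called without naive array 1 (-0.54, adjusted p = 0.109), without naive array 3 (-0.72, adjusted p = 0.0637), or on the second Pax5 probe set (-0.10, adjusted p = 0.771). Nor was it called with the arrays aligned on bright genes (-0.53, adjusted p = 0.0705) or with the mean of both Pax5 probe sets (-0.44, adjusted p = 0.0602).

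The zinc finger members were also lower in plasma cells. Bcl11a (chromosome 11, 24076564 to 24173558) had 36.0, 35.3, 28.6 and 35.5 on plasma arrays, against 1728, 1480 and 1788 on naive arrays. The plasma signal was above background on all 4 arrays and far below every naive array (-5.62 ± 0.24, 49.3-fold, adjusted p = 3.99e-10). Ikzf3 (chromosome 11, 98464610 to 98546031), which encodes Aiolos, a factor needed for long-lived plasma cells, had 406, 371, 454 and 478 on plasma arrays, against 1478, 1243 and 1235 on naive arrays. All plasma arrays were below all naive arrays but well above background, and the change was -1.63 ± 0.12 (adjusted p = 1.43e-07). Ikzf1 (chromosome 11, 11684962 to 11772930), encoding Ikaros, which acts from the earliest lymphoid progenitors on, had 836, 918, 1016 and 821 on plasma arrays, against 2172, 1599 and 1797 on naive arrays. These ranges did not overlap, and the change was -1.04 ± 0.20 (adjusted p = 0.00103).

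Of the octamer pair, Pou2af1 was called higher in plasma cells and Pou2f2 was not called. Pou2af1 (chromosome 9, 51213690 to 51240079) had 4249, 3162, 3384 and 3565 on plasma arrays, against 2617, 2705 and 2352 on naive arrays. Every plasma array was above every naive array. The change was 0.48 ± 0.15 (adjusted p = 0.0257), and it missed the threshold without plasma array 1 (0.40, adjusted p = 0.0781), without naive array 1 (0.50, adjusted p = 0.0579) and without naive array 3 (0.42, adjusted p = 0.0996). It also missed with the arrays centred on the median of all probe sets (0.40, adjusted p = 0.0824). Pou2f2 (chromosome 7, 25087350 to 25180797) had 11.6, 13.2, 10.4 and 13.7 on plasma arrays, none above background, against 21.7, 12.0 and 16.2 on naive arrays. The arrays overlapped, and the change of -0.41 ± 0.20 did not pass (adjusted p = 0.153, 95% interval -0.85 to 0.03). It passed without naive array 2 (-0.63, adjusted p = 0.0327).

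Markers of other cells moved with this contrast. The T cell markers Cd3e, Cd8a and Thy1 and the myeloid markers Csf1r, Cd68 and Lyz2 were higher in plasma than in naive cells. These are 3 of 10 and 3 of 11 measured, beside 14.2% higher over all genes. The myeloid marker Adgre1 was lower, with 27.9 in plasma cells and 51.2 in naive cells. The largest mean of the 6 higher markers was 71.9 intensity units in plasma cells, for Csf1r, against 29.3 in naive cells. Their part in the changes of the members was not tested.

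**Figure D2:**
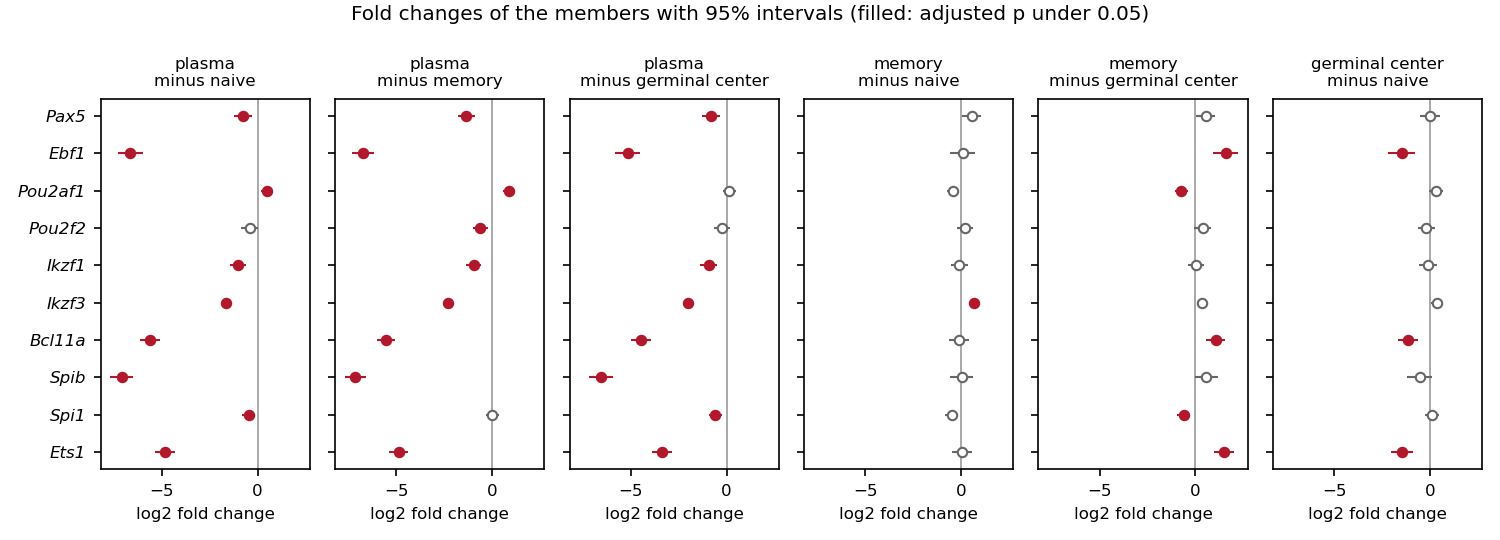
Log2 fold change of each member in the 6 contrasts between subsets, with 95% intervals (horizontal lines). Filled points passed at an adjusted p under 0.05. Spib, Ebf1, Bcl11a and Ets1 lie far to the left in the 3 plasma contrasts, between -7.14 and -3.39, and Pou2af1 lies at or right of 0 there.

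Against memory cells, plasma cells again had 8 lower members and 1 higher, with 16% of all genes lower and 17.2% higher and a member median of -1.83 against 0.08. Spib (-7.14 ± 0.26), Ebf1 (-6.74 ± 0.28), Bcl11a (-5.53 ± 0.22) and Ets1 (-4.89 ± 0.23) were again far lower. Markers of other cells called higher in plasma than in memory cells were Cd3e, Thy1, Csf1r, Cd68, S100a9, Klf1, Epor and Gzma, of which S100a9 was below background on every array. Their part in the changes of the members was not tested. Pax5 had 18.6, 14.4, 16.1 and 18.5 on plasma arrays, against 34.2, 58.2, 41.5 and 39.7 on memory arrays. This was its widest separation, with no overlap, at -1.34 ± 0.21 (adjusted p = 0.000144), and both Pax5 probe sets were lower. Pou2af1 had 4249, 3162, 3384 and 3565 on plasma arrays, against 1889, 1832, 1940 and 2071 on memory arrays. It was 1.85-fold higher in plasma cells on the linear scale (0.89 ± 0.14 in log2, adjusted p = 0.000166). Pou2f2 was called lower (-0.62 ± 0.19, adjusted p = 0.0201) with 11.6, 13.2, 10.4 and 13.7 on plasma arrays, against 18.2, 21.1, 21.9 and 14.4 on memory arrays. Since no plasma array was above background, its fold is only bounded, at least 1.36-fold lower in plasma cells. The call was lost without plasma array 3 (adjusted p = 0.062), memory array 2 (0.0601) or memory array 3 (0.0639). A floor of 16 (-0.26, adjusted p = 0.126) and the actin ratio as a covariate (-0.56, adjusted p = 0.0748) also ended the Pou2f2 call. Spi1 did not differ detectably (0.02 ± 0.15, 95% interval -0.30 to 0.34, adjusted p = 0.94).

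Against germinal center cells, plasma cells had 8 lower members and 0 higher, with 12.6% of all genes lower and 11.2% higher and a member median of -1.46 against -0.02. Ikzf3 was 3.97-fold lower (-1.99 ± 0.12, adjusted p = 2.71e-08) and Ikzf1 1.91-fold lower (-0.93 ± 0.20, adjusted p = 0.00306). Pou2af1 had 4249, 3162, 3384 and 3565 on plasma arrays, against 3506, 2487 and 3817 on germinal center arrays. These overlapped, and the change of 0.15 ± 0.15 did not pass (adjusted p = 0.562, 95% interval -0.18 to 0.48). Pou2f2 did not pass either, at -0.23 ± 0.20 (adjusted p = 0.485, unadjusted p = 0.269). Pax5 was called lower (-0.81 ± 0.23, adjusted p = 0.0172). The call was lost without plasma array 2 (adjusted p = 0.0506), without germinal center array 1 (adjusted p = 0.0641) and with the actin covariate (adjusted p = 0.0581). It was also lost with the mean of both Pax5 probe sets (-0.28, adjusted p = 0.282). The second Pax5 probe set had 23.4 in plasma cells and 19.7 in germinal center cells, with no overlap and no call (0.25, adjusted p = 0.482). Spi1 was called lower (-0.59, adjusted p = 0.014), and the call was lost without germinal center array 2 (-0.43, adjusted p = 0.0738) and with the actin ratio (-0.39, adjusted p = 0.205). Alignment on bright genes also ended the Spi1 call (-0.52, adjusted p = 0.0885). Of the other cells' markers, Thy1 and Cd68 were higher in plasma than in germinal center cells. The 3 plasma contrasts share the plasma arrays, so they are not separate evidence of the same fall.

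Germinal center B cells, proliferating cells in which antibody genes mutate, were compared with naive B cells next. Ebf1, Ets1 and Bcl11a were lower, 3 of 10 members, and 0 were higher, while 11.1% of all genes were lower and 8.37% higher. The member median was -0.14, against 0.06 for all genes. Ebf1 had 383, 1187 and 917 on germinal center arrays, against 2415, 2065 and 1828 on naive arrays. Ets1 had 789, 691 and 1193 on germinal center arrays, against 2051, 2414 and 2736 on naive arrays. Bcl11a had 429, 891 and 1102 on germinal center arrays, against 1728, 1480 and 1788 on naive arrays. Germinal center arrays were below naive arrays without overlap for all 3, and germinal center array 1 was the lowest for Ebf1 and Bcl11a. The changes were -1.48 ± 0.32 for Ebf1 (adjusted p = 0.00416), -1.46 ± 0.26 for Ets1 (adjusted p = 0.00104) and -1.15 ± 0.25 for Bcl11a (adjusted p = 0.00493). With the actin ratio as a covariate Ets1 (-1.01, adjusted p = 0.155) and Bcl11a (-0.95, adjusted p = 0.21) no longer passed, and Ebf1 did. Bcl11a also missed the threshold with the arrays of both subsets fitted alone (adjusted p = 0.0668), and it was -0.74, still called, without germinal center array 1. That ratio was 10.1, 17.6 and 6.11 on germinal center arrays, against 4.68, 4.39 and 5.30 on naive arrays, so it differs with the subset.

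The other members did not pass between germinal center and naive cells. Spib spread widely, with 693, 1143 and 1996 on germinal center arrays, against 1790, 1674 and 1625 on naive arrays. Germinal center array 3 was above all naive arrays and the other two below them, so no difference was detectable (-0.54 ± 0.30, adjusted p = 0.25, 95% interval -1.19 to 0.11). Without germinal center array 3 Spib passed, at -0.93 (adjusted p = 0.0181). Ikzf3 had 1536, 1684 and 1861 on germinal center arrays, against 1478, 1243 and 1235 on naive arrays. These ranges did not overlap, but the change of 0.36 ± 0.13 missed the threshold (adjusted p = 0.0725). Pou2af1 had 3506, 2487 and 3817 on germinal center arrays, against 2617, 2705 and 2352 on naive arrays. Germinal center array 2 lay among the naive arrays, and the change was 0.33 ± 0.16 (adjusted p = 0.181), or 0.52 without that array (adjusted p = 0.0258). Both Ikzf3 and Pou2af1 passed as higher after quantile normalization or alignment on bright genes, with adjusted p between 0.0316 and 0.0433, and the median change of bright genes in this contrast was -0.20. Pou2af1 also passed with the actin ratio as a covariate, at 0.78 (adjusted p = 0.0242), and Ikzf3 with a floor of 16 (0.36, adjusted p = 0.0425). Pax5 (0.03 ± 0.24), Ikzf1 (-0.11 ± 0.22), Spi1 (0.13 ± 0.17) and Pou2f2 (-0.18 ± 0.22) were all within 1 SE of 0.

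Memory B cells differed from naive B cells in 1 member. Ikzf3 had 2174, 2188, 2117 and 2009 on memory arrays, against 1478, 1243 and 1235 on naive arrays. All memory arrays were above all naive arrays. Ikzf3 was 1.61-fold higher in memory cells (0.69 ± 0.12 in log2, adjusted p = 0.0043), and it passed under every alternative except a minimum change of 1 on the log2 scale. Of all genes 2.31% were higher and 3.26% lower, and the member median was 0.04 against -0.03. Ebf1 had 2608, 2004, 1725 and 2769 on memory arrays, against 2415, 2065 and 1828 on naive arrays. Memory arrays fell on both sides of the naive ones, and the change was 0.10 ± 0.30 (95% interval -0.55 to 0.74). Spib (0.04 ± 0.28, interval -0.57 to 0.65), Ets1 (0.04 ± 0.25, interval -0.49 to 0.57), Bcl11a (-0.09 ± 0.24, interval -0.60 to 0.42) and Ikzf1 (-0.08 ± 0.20, interval -0.51 to 0.35) likewise overlapped between memory and naive arrays. Another 3 members lay further from 0 without passing. Pax5 had 34.2, 58.2, 41.5 and 39.7 on memory arrays, against 39.7, 19.3 and 31.0 on naive arrays, a change of 0.57 ± 0.23 (adjusted p = 0.195). Pou2af1 had 1889, 1832, 1940 and 2071 on memory arrays, against 2617, 2705 and 2352 on naive arrays. Its ranges did not overlap, at -0.40 ± 0.15 (adjusted p = 0.164). Spi1 had 31.0, 35.2, 37.2 and 31.6 on memory arrays, against 47.9, 53.5 and 40.3 on naive arrays, with no overlap and -0.48 ± 0.16 (adjusted p = 0.111). Pou2f2 was at 0.21 ± 0.20 (adjusted p = 0.708).

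Between memory and germinal center cells 5 members passed. Ebf1 (1.58 ± 0.30, adjusted p = 0.00143), Ets1 (1.50 ± 0.25, adjusted p = 0.000439) and Bcl11a (1.06 ± 0.24, adjusted p = 0.00471) were higher in memory cells, and Pou2af1 (-0.74 ± 0.15, adjusted p = 0.00258) and Spi1 (-0.60 ± 0.16, adjusted p = 0.0126) were lower. Over all genes 11% were higher and 11.5% lower, and the member median was 0.46 against -0.08. Pou2af1 had 1889, 1832, 1940 and 2071 on memory arrays, against 3506, 2487 and 3817 on germinal center arrays. All memory arrays were below all germinal center arrays. Spi1 had 31.0, 35.2, 37.2 and 31.6 on memory arrays, against 49.1, 63.2 and 43.3 on germinal center arrays. These did not overlap, but Spi1 was not called without germinal center array 2 (-0.45, adjusted p = 0.0671). With the actin ratio as a covariate Ebf1 and Pou2af1 still passed, and Ets1 (1.03, adjusted p = 0.129), Bcl11a (0.86, adjusted p = 0.246) and Spi1 (-0.29, adjusted p = 0.617) did not. Pou2af1 was at -1.21 in that fit. Bcl11a was at 0.66, still called, without germinal center array 1, and Spib, not called with all arrays, passed without germinal center array 3 (0.97, adjusted p = 0.00991).

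The order of the subsets followed from these tests. For Ebf1, Ets1 and Bcl11a it was plasma lowest, then germinal center, with memory and naive highest and not told apart. For Spib plasma was lowest and the other subsets were not told apart, and the same held for Ikzf1. For Ikzf3 plasma was lowest and memory highest by mean, with germinal center between naive and memory on the brightest probe set and differing detectably from neither. On the second brightest Ikzf3 probe set germinal center was lower than both, called against naive (-0.56, adjusted p = 0.028) and against memory (memory minus germinal center 1.31, adjusted p = 3.08e-05). For Pou2af1 memory was lowest by mean and plasma highest, and the neighbours memory and naive, naive and germinal center, and germinal center and plasma each did not differ detectably. For Pax5 plasma was lowest, and germinal center, naive and memory were not told apart on the brightest probe set, while the second Pax5 probe set was higher in memory than in germinal center cells (0.82, adjusted p = 0.0118). On that probe set germinal center was lowest by mean, so the 2 probe sets give different orders. For Spi1 memory and plasma were lowest, and naive and germinal center highest, with memory and naive not told apart. For Pou2f2 only plasma and memory were told apart.

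The other probe sets of the members served as a check. Of the 29 probe sets 24 were above background on every array of at least 1 subset. For Ebf1 4 of 5 probe sets met this, and all 4 were lower in plasma than in naive cells (-6.65 to -2.70) and lower in germinal center than in naive cells (-1.48 to -1.04). For Ets1 4 of 4 met it, and all 4 were lower in plasma than in naive cells (-5.90 to -1.17), with 3 of 4 lower in germinal center than in naive cells. For Bcl11a 5 of 7 met it and 4 were lower in plasma than in naive cells. The exception, a probe set whose name marks possible cross-hybridisation, had 39.9 in plasma cells and 31.6 in naive cells. The Sdc1 and S1pr2 probe sets and a Pou2f2 probe set, among others, carry the same mark. Between germinal center and naive cells 3 of these 5 Bcl11a probe sets were lower. The other 2 were not called (-0.43, adjusted p = 0.242, and 0.27, adjusted p = 0.532). A dimmer Bcl11a probe set differed more in germinal center cells, at 14.5, against 57.8 in naive cells (-1.99). It was above background on 2 of 3 germinal center arrays. For Ikzf3 all 3 probe sets were lower in plasma (-1.63 to -1.33) and higher in memory (0.69 to 1.76) than in naive cells. Between germinal center and naive cells the Ikzf3 probe sets went apart. The second brightest had 31.5, 47.6 and 42.9 on germinal center arrays, against 69.6, 55.6 and 53.7 on naive arrays, and it was called lower (-0.56). The third had 47.4, 53.2 and 56.9 on germinal center arrays, against 40.0, 12.5 and 22.2 on naive arrays (1.23, not called). No single direction can be given for Ikzf3 in this contrast. The second Pax5 probe set had 24.7, 24.1, 23.1 and 21.8 on plasma arrays, against 25.3, 28.1 and 22.4 on naive arrays, which overlapped. Of the 3 Pou2f2 probe sets, the dimmest was called higher in germinal center than in naive cells (15.0 and 9.89, adjusted p = 0.0253) and lower in plasma than in germinal center cells (-0.57, adjusted p = 0.0187), where the brightest was not called. That probe set was above background on 2 of 3 germinal center arrays and on no plasma or naive array. Both Pax5 probe sets are within 3.5 times background in all subsets. Pou2af1, Spib and Spi1 have 1 probe set each, and the second Ikzf1 probe set was at background in all subsets, so these members have no such check.

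**Figure D3:**
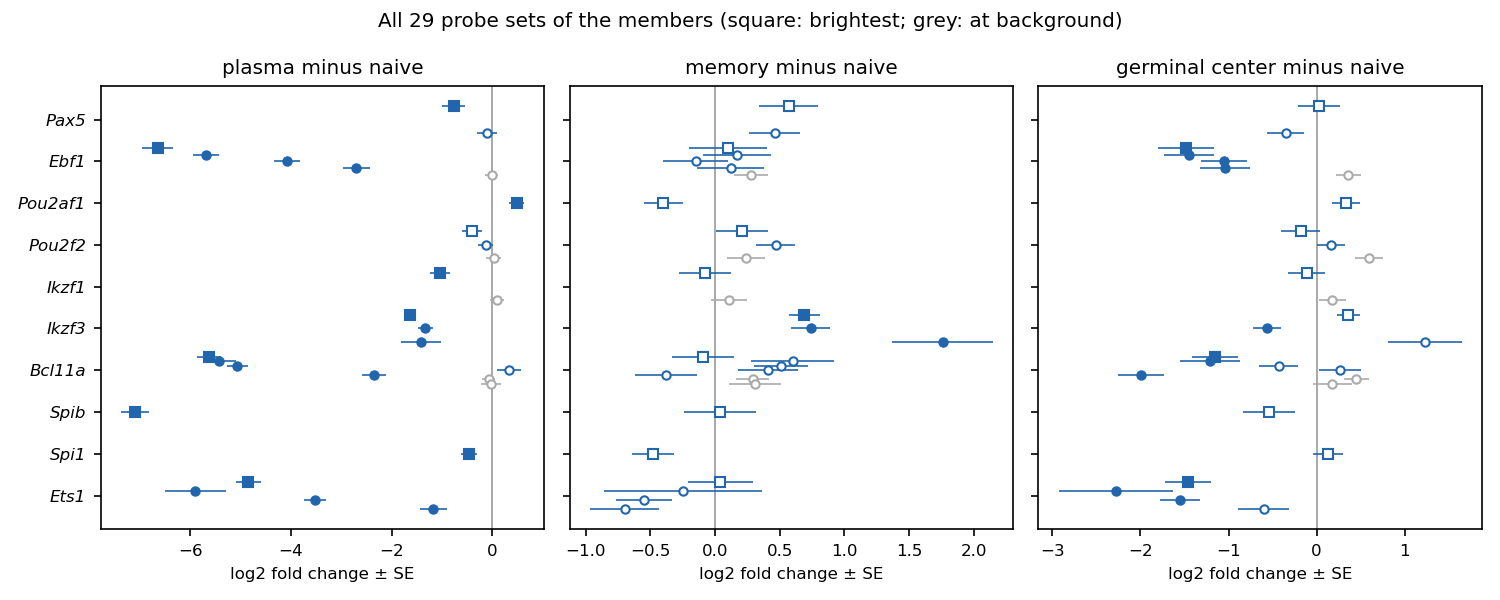
Log2 fold change ± SE against naive cells for all 29 probe sets of the members, in plasma, memory and germinal center cells (each panel has its own scale). Squares are the brightest probe sets, filled symbols passed at an adjusted p under 0.05, and grey symbols were not above background on all arrays of any subset. The probe sets of Ebf1, Ets1 and Ikzf3 lie left of 0 in plasma cells apart from a grey one of Ebf1, and the 3 of Ikzf3 lie on both sides of 0 in germinal center cells.

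Genes known as targets of the members were read in the same fit, and the counts below stand beside 16.1% lower and 14.2% higher over all genes in plasma against naive cells, where the median of all genes was 0.06. Of 15 measured genes that Pax5 or Ebf1 is known to activate, 12 were lower and 0 higher in plasma than in naive cells, with a median change of -3.88. They include Cd72, an inhibitory receptor (13.98 in plasma cells, with 2 of 4 arrays above background, and 1812 in naive cells, -7.02 ± 0.17, adjusted p = 3.42e-12), Cr2, the complement receptor CD21 (-5.91 ± 0.15, adjusted p = 3.42e-12), and Irf8, a transcription factor (-6.03 ± 0.24, adjusted p = 2.34e-10). Bach2, a repressor of Prdm1, was above background on no plasma array and was at least 71.6-fold lower. The exceptions were Blnk, the adaptor of B cell receptor signalling, with 6238 in plasma cells and 4596 in naive cells (0.44 ± 0.17, adjusted p = 0.0684), Lef1 (0.14 ± 0.20, adjusted p = 0.64) and Vpreb3 (-0.30 ± 0.21, adjusted p = 0.32). In naive cells Lef1 averaged 23.8 and Vpreb3 19.4, near background, so a fall of either had little room to show. Fcer2a, also in this list, encodes CD23, on which naive cells were sorted, so it is a marker of that gate.

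Of 9 measured genes that Pax5 is known to repress, 8 were higher in plasma than in naive cells, with a median of 2.58. Prdm1 had a mean of 521 in plasma cells and 10.9 in naive cells (5.58 ± 0.21, adjusted p = 1.55e-10), and 1 of 3 naive arrays was above background, so the size is limited by background. Cd28, a costimulatory receptor, was at least 62-fold higher in plasma cells. Xbp1, the regulator of secretion, was 5.97-fold higher (2.58 ± 0.27, adjusted p = 4.5e-06). Ccr2, a chemokine receptor, was at 0.01 ± 0.20 (adjusted p = 0.984), with a signal near background in both subsets (20.0 in plasma cells and 19.9 in naive cells). Prdm1, Xbp1 and Jchain are also in the plasma cell marker list, and Csf1r, which was higher here, is also in the myeloid list. Cd79a and Cd79b, in the list of activated genes, are also B cell markers. Bcl6, among the targets that follow, is also a germinal center marker. Of 9 measured targets of Oct2, OBF-1, PU.1 or Spi-B, 6 were lower and 0 higher in plasma than in naive cells, with a median of -1.83. Cxcr5, the receptor that brings B cells into follicles, changed by -6.80 ± 0.33 (adjusted p = 1.67e-09) with 2 of 4 plasma arrays above background, and Bcl6, the germinal center repressor, was at least 103-fold lower.

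In germinal center cells against naive cells, where 11.1% of all genes were lower and 8.37% higher, 6 of 15 genes activated by Pax5 or Ebf1 were lower and 0 higher (median -0.75), among them Cd55, a complement regulator (-6.48 ± 0.35, adjusted p = 1.34e-08). Of the 9 genes repressed by Pax5, 3 were higher: Jchain (7.34 ± 0.73, adjusted p = 4.86e-06, with 1 of 3 naive arrays above background), Flt3 (3.62 ± 0.18, adjusted p = 4.68e-09) and Emb (1.58 ± 0.29, adjusted p = 0.00111). Prdm1 was above background on no germinal center array and 1 of 3 naive arrays, and no difference was detectable (adjusted p = 0.991). Of the 9 targets of Oct2, OBF-1, PU.1 or Spi-B, 5 were lower and 1, Bcl6, was higher (0.85 ± 0.26, adjusted p = 0.031). In memory cells against naive cells, 3 of 15, 0 of 9 and 1 of 9 genes of these lists were lower and 0, 3 and 1 were higher, against 3.26% lower and 2.31% higher over all genes. Emb, a cell adhesion protein, was higher in memory cells (2.32 ± 0.27, adjusted p = 0.000154), and so were Prdm1 (0.89 ± 0.21, adjusted p = 0.0251) and Jchain (2.98 ± 0.68, adjusted p = 0.0203), both above background on 1 of 3 naive arrays. Jchain spread widely over the memory arrays, at 37.6, 28.5, 86.3 and 489. Memory array 4 was also highest among them for Sdc1 (49.9, against 6.4 to 7.9) and Ighm (11710, against 3388 to 5088). Prdm1 did not stand apart on that array (14.57, 25.45, 17.87 and 25.14 on memory arrays 1 to 4). Why memory array 4 differs was not tested.

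Relatives of the members within the Ets, Ikaros and Bcl11 families were read in the same way. Of 15 measured, 5 were lower and 0 higher in plasma than in naive cells (median -0.64), against 16.1% lower over all genes, namely Elk3 (-2.00 ± 0.24, adjusted p = 1.45e-05), Elf2 (-1.95 ± 0.33, adjusted p = 0.000312), Fli1, Elf1 and Ets2. All of these belong to the Ets family, as do most of the relatives measured. Of the others, Ikzf2, Ikzf4 and Bcl11b averaged 10.0, 12.5 and 12.3 in naive cells, near background, and could hardly fall. Ikzf5, with 112 in naive cells, was not called (-0.64 ± 0.32, adjusted p = 0.153). The list therefore cannot show that the falls are particular to the Ets family. In germinal center cells 4 of 15 were lower than in naive cells (11.1% of all genes), Ikzf5, Elf2, Fli1 and Etv3, with Fli1 at -2.19 ± 0.51 (adjusted p = 0.00682). In memory cells 1 of 15 was, near the 3.26% of all genes, namely Ets2, with 39.3 in memory cells and 195.5 in naive cells (-2.31 ± 0.31, adjusted p = 0.000511). Bcl11b, the T cell relative of Bcl11a, averaged 14.7 in plasma cells and 12.3 in naive cells (0.26 ± 0.17, adjusted p = 0.303). Spic lay below background on every array.

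**Figure D4:**
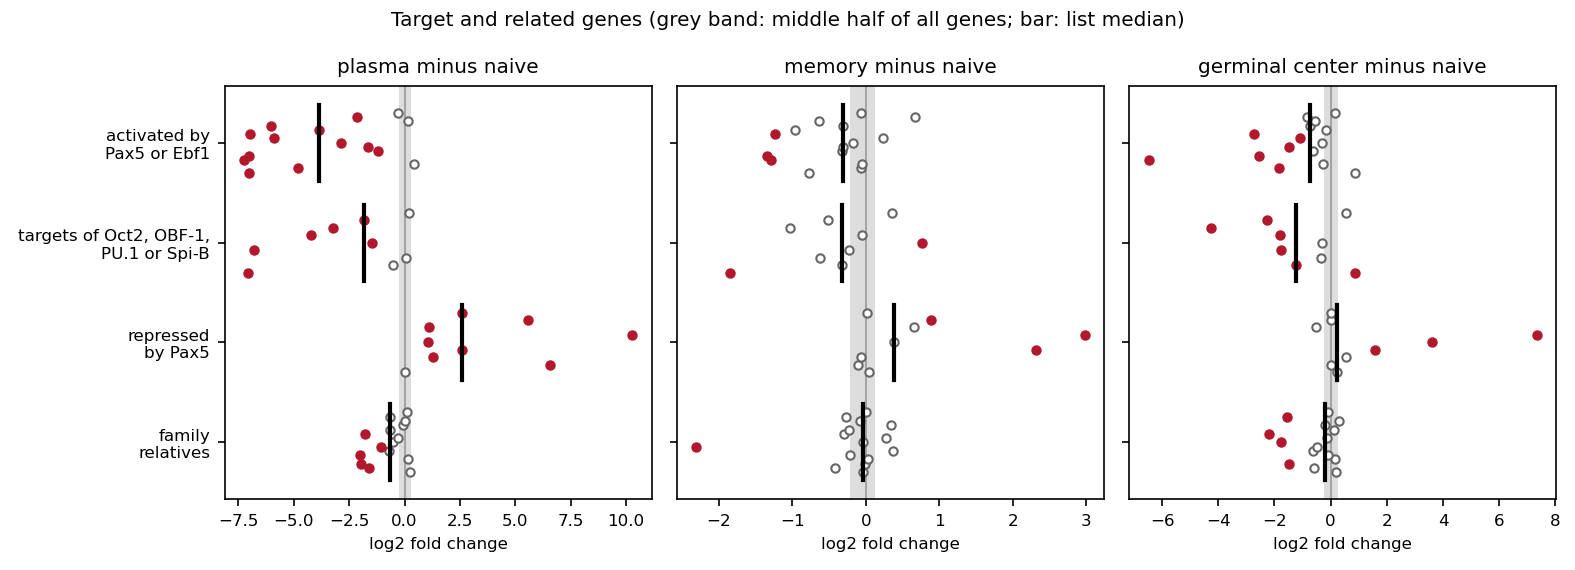
Log2 fold change of each measured gene of 4 lists in plasma, memory and germinal center cells against naive cells (each panel has its own scale). Filled points passed at an adjusted p under 0.05, vertical bars are list medians, and the grey band holds the middle 50% of all genes. In plasma cells the bars lie at -3.88, -1.83, 2.58 and -0.64 from the top list to the bottom one.

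The genes whose profiles were nearest to each member were found by the root mean square difference of centred log2 intensities over the 14 arrays, among 12318 genes above background on at least 3 arrays. For Spib the nearest were Cd22, an inhibitory receptor of B cells (0.30), H2-Ob, a modulator of MHC class II loading (0.47), and Sorl1 (0.47). For Ebf1 they were H2-Ob (0.30), Tlr1 (0.38) and Cxcr5 (0.39). For Bcl11a they were Cr2 (0.32), Btg1 (0.37) and Scd1 (0.40), and for Ets1 they were Blk, a B cell kinase (0.39), H2-Oa (0.40) and Rcsd1 (0.40). These members had SDs of 2.18 to 3.29 over the arrays, and all of these profiles share the same low plasma arrays. For the members that varied least, a small difference is easily reached: the nearest gene was Bptf (0.24) for Ikzf3, Inpp5d (0.18) for Ikzf1, Ppp2ca (0.18) for Pou2af1, Tacc1 (0.21) for Pax5, Ankrd54 (0.17) for Spi1 and Clasrp (0.15) for Pou2f2. Among the 4 members with wide spread, the closest pairs were Bcl11a with Ets1 (0.52), Ebf1 with Bcl11a (0.55) and Ebf1 with Spib (0.60).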

How the data were processed

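RNA of 14 sorted B cell samples was measured on Affymetrix arrays. The authors deposited 1 linear intensity per probe set and array, made with RMA per the submitters' processing notes, with no version given. No value was at 0, so log2 was taken with no pseudocount. Of 45101 probe sets 64 are controls, 932 carry several gene symbols and 9160 none, and these entered no gene. Each gene was read from its brightest probe set. Background was set per array at the highest signal among 27 unspiked bacterial controls. limma 3.58.1 (R 4.3.3) was fitted to all 14 arrays with 1 mean per subset (10 residual degrees of freedom), two-sided, with Benjamini-Hochberg adjustment over 18193 genes per contrast, and was tested on simulated data. A fold is a bound where the dim subset exceeded background on no array. Lists and likeness used the same values, and target and family lists came from textbook knowledge. The genes named are the members, genes of these lists and the 3 nearest genes per member. The members and lists were chosen with earlier results of these data known. Alternatives changed the normalization, filter, floor, variance model, arrays, probe sets, covariates and fold threshold. Every column belonged to a sample. The files name no genome build, and gene positions come from RefSeq. Listed genes without a probe set of their own were not analysed here.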

Additional observations from a re-analysis of the deposited data

Results flagged for a closer look

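The highest and lowest arrays of the members were compared with the rest of their subset, in the plasma and memory subsets with 4 arrays each, 20 groups in all, of which chance alone marks about 1 in 20. In 2 groups an array stood far from the other 3. For Ebf1, plasma array 2 had 17.5 intensity units, against 21.7 to 22.6 on the other plasma arrays. For Bcl11a, plasma array 3 had 28.6, against 35.3 to 36.0 on the other plasma arrays. Both differences are small beside the distance to the naive arrays, and the calls of Ebf1 and Bcl11a between plasma and naive cells held when each array was left out in turn.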

How the results depend on the processing

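Over 27 alternatives, 18 of the 35 member changes that passed kept their direction and call under all of them, among them Spib, Ebf1, Bcl11a, Ets1 and Ikzf3 in the 3 plasma contrasts. Spib, Pou2af1 and Spi1 have 1 probe set each. For them the second brightest probe set and the mean of all probe sets reuse the same values and could not change the fold. Of 945 recomputed values of the 35 changes, 54 missed the threshold and 2 turned sign, both on the second brightest probe set: Ikzf1 between plasma and naive cells (0.09) and Pax5 between plasma and germinal center cells (0.25). Leaving out 1 array in turn gave 6 to 9 called members for plasma against naive cells (9 with all arrays), 8 to 9 for plasma against memory (9), 7 to 8 for plasma against germinal center (8), 1 to 1 for memory against naive (1), 4 to 6 for memory against germinal center (5) and 3 to 4 for germinal center against naive (3). Germinal center against naive gave 5 called members after quantile normalization and 5 after alignment on bright genes. A minimum log2 change of 1 left 6 for plasma against naive, 6 for plasma against memory and 5 for plasma against germinal center. It left 0 for memory against naive and 3 for memory against germinal center, where the actin covariate left 2. The cause of these shifts was not tested, apart from the stricter rule itself. Counts over all genes moved by over 1.5 times with each probe set on its own, where more features are tested: 10355 for plasma against naive (5517 with 1 probe set per gene), 12781 against memory (6035), 7824 against germinal center (4331), 1772 for memory against naive (1014), 8162 against germinal center (4084) and 6178 for germinal center against naive (3542). With the minimum change they were 3393, 3596, 2727, 597, 2458 and 2256 in the same order. The actin covariate left 1540 for germinal center against naive and 1779 for memory against germinal center. For memory against naive, a floor of 16 left 596, the second probe set 626, and leaving out naive array 2 or 3 left 603 or 624.

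Changes that did not pass turned sign as follows. On the second brightest probe set, germinal center minus naive was -0.35 for Pax5, 0.16 for Pou2f2, 0.18 for Ikzf1 and -0.56 for Ikzf3, memory minus naive was 0.11 for Ikzf1, 0.60 for Bcl11a and -0.25 for Ets1, and memory minus germinal center was -0.06 for Ikzf1. With the mean of all probe sets, germinal center minus naive was -0.16 for Pax5, 0.19 for Pou2f2 and 0.03 for Ikzf1, memory minus naive was 0.02 for Ikzf1, 0.24 for Bcl11a and -0.36 for Ets1, and memory minus germinal center was -0.02 for Ikzf1. With the actin covariate, germinal center minus naive was 0.45 for Ikzf1 and -0.18 for Spi1, plasma minus germinal center was -0.14 for Pou2af1, plasma minus memory was -0.10 for Spi1 and memory minus germinal center was -0.56 for Ikzf1. Alignment on bright genes gave 0.07 for Ikzf1 (germinal center minus naive) and 0.11 for Ikzf1 and 0.10 for Bcl11a (memory minus naive). Centring on all probe sets gave -0.08 for Pax5 (germinal center minus naive), 0.00 for Spib (memory minus naive) and -0.02 for Spi1 (plasma minus memory). Leaving out single arrays turned changes between -0.26 and 0.26 for Pax5, -0.39 and 0.04 for Pou2f2, -0.37 and 0.06 for Ikzf1 and -0.03 and 0.25 for Spi1 in germinal center minus naive. In memory minus naive it gave -0.01 to 0.22 for Ebf1, -0.01 to 0.42 for Pou2f2, -0.18 to 0.04 for Ikzf1, -0.06 to 0.14 for Spib and -0.10 to 0.16 for Ets1. It gave -0.04 to 0.27 for Pou2af1 in plasma minus germinal center, -0.05 to 0.10 for Spi1 in plasma minus memory and -0.14 to 0.29 for Ikzf1 in memory minus germinal center.

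Replicate numbers did not pair the arrays: deviations of 19 same-numbered pairs correlated between -0.23 and 0.24, over 0.1 in 5, and 3 of 19 arrays correlated best with their own number. With a replicate block the called members numbered 9, 9, 8, 1, 5 and 3 in the order of the contrasts above, as without it, and Ets1 in memory minus naive turned to -0.05. The mean of all probe sets, dim ones included, kept Ebf1, Bcl11a and Ikzf1 lower in plasma than in naive cells at -3.83, -2.60 and -0.48. Signals near background limit Pax5, Spi1 and Pou2f2.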
